A study of Mus musculus with 9 samples.

Results

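The comparison described here set the livers of mice that received cells named MSC after acetaminophen (APAP) against the livers of mice that received APAP alone. It rests on 6 of the 9 RNA sequencing libraries of the series, 3 per group, chosen by their group labels, and all expressed genes were tested. All groups shared 1 treatment, APAP at 300 mg/kg given intraperitoneally in saline to C57BL6J mice aged 8 weeks, with 24 h named as the time point in the title of the series. In the APAP_MSC group 500000 MSC were injected intravenously in saline 90 min after APAP. The APAP_HDF group, used here for reference, received 500000 HDF in the same way. MSC is a usual short form of mesenchymal stromal cells and HDF of human dermal fibroblasts, but the labels expand neither and give no source for the cells. Livers without APAP were not analysed here, so no value below can be read against healthy liver. The labels state n = 3 without saying that each library came from its own animal, so each p-value reflects the spread among these samples, which may be technical. Count columns carry no sample number, so the library numbers 1, 2 and 3 used below only name columns within a group.

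In high dose, APAP is oxidised by cytochromes P450 of hepatocytes around the central vein to a reactive quinone imine, which uses up glutathione and binds proteins until the cells die. Injured liver lowers many genes of its differentiated metabolism, draws in neutrophils and monocytes, and then regrows from surviving hepatocytes. Mesenchymal stromal cells are culture-grown connective tissue cells that are studied for the factors they release, which act on immune and tissue cells of the host.

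Gene levels are given as CPM (counts relative to library size), computed with library sizes scaled by trimmed means of M-values (TMM), and differences as log2 fold changes of APAP_MSC over APAP with their standard error (SE). Libraries held 53267000 to 63176000 counts (5 digits kept), and finding 0 reads of a gene is compatible with up to 3, equal to 0.0453 to 0.0567 CPM, where the limit covers counting error alone. A gene counted as changed, here also termed called, at a Benjamini-Hochberg adjusted p under 0.05 in edgeR's two-sided quasi-likelihood test, fitted to all 9 libraries. In all, 1121 of 17582 tested genes (6.38%) changed, 498 upwards (2.83%) and 623 downwards (3.54%), and the median log2 fold change of all tested genes was -0.01, with quartiles of -0.26 and 0.21. Groups did not overlap, every library of one lying above every library of the other, for 28.5% of tested genes. Of the 1121 called genes 1120 had no overlap. Where the groups of a called gene are said below to be apart, this adds no support to the call. Genes named by rank were also required not to overlap. Leaving out APAP_MSC library 1, 2 or 3 lowered the count to 258, 97 or 380, leaving out APAP library 1 or 2 lowered it to 496 or 698, and leaving out APAP_HDF library 1 raised it to 1753. Where several libraries stand after "without" below, each was left out by itself. Calls of 89 genes, 52 higher and 37 lower, held in each of the 9 fits that leave out 1 library. The difference between the effects of the cell groups is the direct test of APAP_MSC against APAP_HDF, which called 1563 genes (8.89%), 862 higher in APAP_MSC (4.9%) and 701 lower (3.99%). Counts of called list members below are to be read beside the shares of all tested genes given here. Genes called higher against APAP, chosen by that difference, held 4.08% to 4.27% of counts in the APAP libraries, 6.92% to 7.14% in APAP_MSC and 3.79% to 4.25% in APAP_HDF. Genes called lower held 2.74% to 3.08%, 1.5% to 1.7% and 2.47% to 3.44%. In APAP_HDF against APAP 0 genes passed edgeR's test, with 1544 at an unadjusted p under 0.05, while DESeq2 called 83 and limma-voom 0.

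Labels name hepatocytes as the cell type, whereas the protocol names a piece of whole liver. The summed level of 10 hepatocyte markers was 119634, 110250 and 90792 CPM in the APAP libraries and 107380, 105896 and 99166 CPM in the APAP_MSC libraries, and 0 of 10 passed, a count that became 1 to 2 without APAP_HDF libraries 1 and 3. Markers of endothelium, macrophages and stellate cells were detected too, so the libraries are described as whole liver. In such bulk samples fewer cells of a type and less RNA per cell cannot be told apart.

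**Figure D1:**
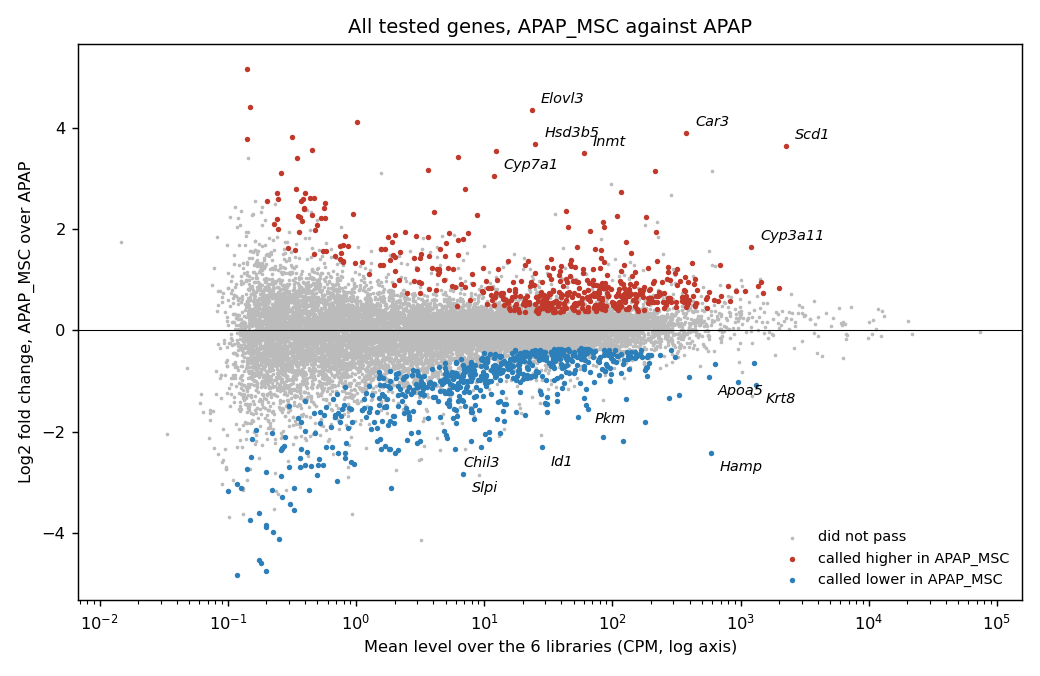
Log2 fold change of APAP_MSC over APAP (vertical axis) against the mean level of each of 17582 tested genes over the 6 libraries in CPM (horizontal log axis). Grey points did not pass, red points are the 498 genes called higher and blue points the 623 called lower, and labels mark genes given in the text, with Elovl3 and Scd1 at the top and Slpi and Hamp at the bottom.

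Hepcidin transcripts and some other targets of bone morphogenetic protein (BMP) signalling were lower after MSC. Hepcidin, encoded by Hamp, is the liver hormone that blocks iron export from cells. BMP ligands of sinusoidal endothelium activate SMAD proteins in hepatocytes, which bind the Hamp promoter, and interleukin 6 adds to transcription through STAT3. Mice carry another copy, Hamp2, near Hamp on chromosome 7. The stretch upstream of both genes is shown because the pair fell together. It covers the 250 bases before the start of transcription in RefSeq's table for build GRCm38.p6, at chr7:30944030-30944279 for Hamp and chr7:30924182-30924431 for Hamp2, both on the minus strand and printed 5′ to 3′. Capitals mark matches to 3 of 5 motifs searched on both strands, GGCGCC (a core of BMP-responsive SMAD sites), TTCNNNGAA (the STAT form) and TGANTCA (the AP-1 form).
Hamp: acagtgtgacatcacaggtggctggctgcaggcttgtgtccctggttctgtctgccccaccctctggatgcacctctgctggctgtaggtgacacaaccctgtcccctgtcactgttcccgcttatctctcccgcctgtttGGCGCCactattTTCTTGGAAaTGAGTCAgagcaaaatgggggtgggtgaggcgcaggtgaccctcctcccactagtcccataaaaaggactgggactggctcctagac
Hamp2: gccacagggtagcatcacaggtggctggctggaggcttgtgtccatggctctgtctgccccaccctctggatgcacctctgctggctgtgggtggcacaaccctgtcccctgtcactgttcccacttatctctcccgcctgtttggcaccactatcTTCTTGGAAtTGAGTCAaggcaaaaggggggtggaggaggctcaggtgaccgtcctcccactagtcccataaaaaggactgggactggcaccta

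Upstream of Hamp the matches were GGCGCC from 109 to 104 bases before the start, TTCTTGGAA from 97 to 89 and TGAGTCA from 87 to 81. The Hamp2 stretch held TTCTTGGAA from 94 to 86 and TGAGTCA from 84 to 78, and no GGCGCC. The remaining motifs searched, CACGTG and TTANGTAA, matched in neither. Matches do not overlap one another. Of the 32851 promoters in the table, 9.586% held GGCGCC in the same 250 bases, 7.02% TTCNNNGAA, 6.749% TGANTCA, 6.021% CACGTG and 2.061% TTANGTAA. Aligned end to end, the stretches shared 227 identical bases with 20 mismatches and 6 gap positions (89.72% identity). A match describes letters only. This identity is that of the upstream stretches and not of the transcripts. Reads of close gene copies can be shared, so the single levels of Hamp and Hamp2 are uncertain to that extent. The Hamp2 stretch was chosen after the values were seen.

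Hamp stood at 731, 1083 and 1145 CPM in the APAP libraries and 162, 199 and 188 CPM in the APAP_MSC libraries. All 3 APAP_MSC libraries lay far below the lowest APAP library, and the APAP_HDF libraries, at 518, 548 and 723 CPM, lay between the groups (log2 fold change -2.43 ± 0.19, adjusted p = 4.03e-04). Against APAP_HDF the difference was also past the threshold (log2 difference -1.70 ± 0.19, adjusted p = 0.00107). Hamp2 had 2.04, 2.69 and 2.38 CPM in the APAP libraries and 0.443, 0.699 and 0.423 CPM in the APAP_MSC libraries, again without overlap (log2 fold change -2.18 ± 0.31, adjusted p = 0.00565). These levels are far below those of Hamp, and sharing of reads with Hamp was not tested. Hamp2 is therefore no result separate from Hamp. Id1, an inhibitor of helix-loop-helix factors and a direct BMP target, had 46.2, 38.3 and 56.7 CPM in the APAP libraries and 11.3, 8.01 and 9.07 CPM in the APAP_MSC libraries, with no overlap (log2 fold change -2.32 ± 0.18, adjusted p = 4.03e-04). Its APAP_HDF libraries held 46.3, 35.1 and 38.7 CPM, and APAP_MSC was lower than these as well (log2 difference -2.08 ± 0.18, adjusted p = 4.19e-04). Smad7, the inhibitory SMAD of the pathway, had 24.3, 25.7 and 26.2 CPM in the APAP libraries and 12.6, 10.4 and 14.6 CPM in the APAP_MSC libraries, and the groups were apart (log2 fold change -1.02 ± 0.13, adjusted p = 0.00353). Id2, a relative of Id1, also fell (log2 fold change -0.83 ± 0.17, adjusted p = 0.0193), as did the ligand gene Bmp2 (log2 fold change -0.93 ± 0.20, adjusted p = 0.0238), which was chosen after its values were seen. When each library was left out in turn, the calls of Hamp, Hamp2, Id1 and Smad7 held throughout and the other 2 were lost at least once. Lost calls numbered 2 without APAP library 1 and APAP_MSC libraries 1 and 2, and 1 without APAP library 2 and APAP_MSC library 3, with adjusted p of 0.0521 to 0.125 where lost.

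Across the BMP and transforming growth factor β (TGFβ) list, 7 of 25 members fell and 0 rose, with a median log2 fold change of -0.52 beside -0.01 over all genes. The other 18 did not pass. Among the 7 are Hamp and Hamp2, whose reads can be shared. In 13 members every APAP_MSC library lay below every APAP library and in 5 above, where 14.7% and 13.7% of all tested genes did so. The count of called members became 4 without APAP_MSC libraries 1 and 2 and 12 without APAP_HDF library 1. Against APAP_HDF, 10 members were lower and 2 higher in APAP_MSC. The cell types in which members of this list fell, Id1 among them, cannot be told in bulk libraries. Sums of sinusoidal endothelial markers, given below, were lower in the same libraries, and their part was not tested.

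Genes of heme synthesis and iron handling moved in both directions. Of 20 members, 2 rose and 1 fell (median 0.23), where 2.83% and 3.54% of all tested genes were called higher and lower. The count became 0 to 1 without APAP libraries 1 and 3, APAP_MSC libraries 1, 2 and 3, and APAP_HDF library 2 and 6 without APAP_HDF library 1. Alad, which joins aminolevulinate into porphobilinogen, had 73.7, 114 and 104 CPM in the APAP libraries and 165, 179 and 157 CPM in the APAP_MSC libraries, and every APAP_MSC library was the higher (log2 fold change 0.78 ± 0.17, adjusted p = 0.0224). Ppox, the enzyme that oxidises protoporphyrinogen, rose less (log2 fold change 0.45 ± 0.12, adjusted p = 0.0425). Hmox1, which breaks heme down, had 45.3, 49.7 and 37.9 CPM in the APAP libraries and 25.3, 12.7 and 15.03 CPM in the APAP_MSC libraries and fell (log2 fold change -1.32 ± 0.33, adjusted p = 0.0498). The median became 0.14 and 0.13 without APAP library 1 and APAP_MSC library 3. Slc11a2, an iron importer, did not pass (log2 fold change 0.38 ± 0.12, adjusted p = 0.0876). With 1 library left out, in 9 fits, every one of the 3 calls was lost in at least 1 fit. Losses numbered 3 without APAP_MSC library 2, 2 without APAP libraries 1 and 3, APAP_MSC libraries 1 and 3, and APAP_HDF library 2, and 1 without APAP library 2, with adjusted p of 0.0516 to 0.174 where lost. Ppox lost its call with limma-voom. Hmox1 lost its call with upper quartile factors, without a low-count filter and with edgeR's older quasi-likelihood method.

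Some genes in the list of fatty acid synthesis and desaturation were higher after MSC, and 9 of 21 members rose while 0 fell. The list's median was 0.68, and the count became 2 to 4 without APAP library 1 and APAP_MSC libraries 1 and 2. Scd1, the stearoyl-CoA desaturase, had 341, 329 and 329 CPM in the APAP libraries and 5468, 4484 and 2526 CPM in the APAP_MSC libraries. The APAP libraries were close together, and all APAP_MSC libraries were far above them, with library 3 the lowest of these (log2 fold change 3.64 ± 0.30, adjusted p = 7.69e-04). In the APAP_HDF libraries Scd1 stood at 228, 126 and 148 CPM, and APAP_MSC was higher (log2 difference 4.64 ± 0.32, adjusted p = 4.03e-04). Scd3, a desaturase close in sequence to Scd1, had 1.41, 0.989 and 0.7997 CPM in the APAP libraries and 16.7, 10.9 and 6.64 CPM in the APAP_MSC libraries, with the same order of the APAP_MSC libraries (log2 fold change 3.43 ± 0.37, adjusted p = 0.003401). Reads of the Scd family can be shared between copies, so the order, fold and calls of Scd3 are no result separate from Scd1. Scd1 and Scd3 also passed in each of the 9 fits that leave out 1 library.

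Other members of the fatty acid synthesis list ranged widely in level. Elovl3, an elongase of long fatty acids that is also male-biased in mouse liver, had 1.695, 1.904 and 2.88 CPM in the APAP libraries and 37.7, 57.2 and 39.5 CPM in the APAP_MSC libraries, the largest fold change of the genes named by rank (log2 fold change 4.36 ± 0.72, adjusted p = 0.0175). Thrsp, a promoter of fatty acid synthesis, had 21.4, 50.1 and 19.1 CPM in the APAP libraries and 226, 241 and 139 CPM in the APAP_MSC libraries (log2 fold change 2.74 ± 0.45, adjusted p = 0.0175). Both genes separated the groups. In the APAP_HDF libraries Elovl3 stood at 1.26, 12.4 and 11.7 CPM. Its difference between APAP_MSC and APAP_HDF did not pass (log2 difference 2.41 ± 0.64, adjusted p = 0.0529). Acacb, the acetyl-CoA carboxylase of mitochondria, had 57.01, 50.4 and 38.1 CPM in the APAP libraries and 158, 131 and 82.3 CPM in the APAP_MSC libraries (log2 fold change 1.35 ± 0.24, adjusted p = 0.0175). Mlxipl, the carbohydrate-responsive factor ChREBP, had 210.1, 177 and 193 CPM in the APAP libraries and 340.4, 473 and 456 CPM in the APAP_MSC libraries, with every APAP_MSC library above APAP (log2 fold change 1.13 ± 0.15, adjusted p = 0.00412). Its sterol-responsive counterpart Srebf1 (log2 fold change 1.33 ± 0.27, adjusted p = 0.0223) and the lipase-like Pnpla3 (log2 fold change 3.16 ± 0.58, adjusted p = 0.0184) rose too, and both were chosen after their values were seen. Mlxipl alone of the 6 called genes given here passed in each of the 9 fits that leave out 1 library. The calls lost numbered 5 without APAP_MSC library 2, 4 without APAP library 1 and APAP_MSC library 1, and 1 without APAP library 3 and APAP_MSC library 3, with adjusted p of 0.05003 to 0.0896 where lost. Srebf1 lost its call without a low-count filter. Pnpla3 lost its call without a low-count filter and with limma-voom.

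Of 21 cholesterol synthesis genes 1 rose, Tm7sf2, a sterol reductase (log2 fold change 0.71 ± 0.13, adjusted p = 0.0165), and 0 fell, with a median of -0.23. The count became 0 without APAP_MSC libraries 1 and 2 and 2 to 9 without APAP_MSC library 3 and APAP_HDF library 1, and the median became -0.04 without APAP_MSC library 3. In 10 members every APAP_MSC library lay below every APAP library, and in 3 above, where 14.7% and 13.7% of all tested genes did so. Among fatty acid oxidation genes and targets of the receptor PPARα, 2 of 25 rose, where 2.83% of all tested genes were called higher, and 0 fell (median 0.23). That count became 0 to 1 without APAP libraries 1 and 2 and APAP_MSC libraries 1, 2 and 3 and 4 to 5 without APAP library 3 and APAP_HDF libraries 1 and 3, and its median became 0.13 without APAP library 2. Among the genes that rose was Acaa1a, a thiolase of peroxisomes, with 80.3, 87.5 and 83.4 CPM in the APAP libraries and 120.3, 123 and 121 CPM in the APAP_MSC libraries (log2 fold change 0.54 ± 0.12, adjusted p = 0.0259). Its groups did not overlap. Fgf21, a hormone induced by fasting and stress, did not pass, with 1.14, 0.821 and 1.98 CPM in the APAP libraries and 3.14, 1.19 and 2.59 CPM in the APAP_MSC libraries (log2 fold change 0.79 ± 0.68, adjusted p = 0.552). When each library was left out in turn, both calls were lost at least once. Lost calls numbered 2 without APAP_MSC libraries 1 and 2, and 1 without APAP libraries 1 and 3 and APAP_MSC library 3, with adjusted p of 0.0524 to 0.108 where lost.

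Apolipoprotein and lipoprotein genes moved in both directions. Angptl8, an inhibitor of lipoprotein lipase induced by feeding, had 77.9, 92.05 and 108 CPM in the APAP libraries and 197, 172 and 248 CPM in the APAP_MSC libraries and rose (log2 fold change 1.15 ± 0.15, adjusted p = 0.00412). Lipc, hepatic lipase, also rose (log2 fold change 1.02 ± 0.20, adjusted p = 0.0184). Apoa5, which promotes clearance of triglyceride, had 741, 714 and 778 CPM in the APAP libraries and 351, 340.4 and 486 CPM in the APAP_MSC libraries, and all APAP_MSC libraries were lower (log2 fold change -0.92 ± 0.14, adjusted p = 0.00757). Apoa4 (log2 fold change -1.02 ± 0.23, adjusted p = 0.0291) and Angptl4 (log2 fold change -1.33 ± 0.31, adjusted p = 0.0379), both induced in fasted liver, fell as well. The list thus had 2 of 24 members higher and 3 lower, a count that became 1 to 3 without APAP library 1 and APAP_MSC libraries 1, 2 and 3 and 10 without APAP_HDF library 1. With 1 library left out, in 9 fits, Angptl8 kept its call throughout and 4 of the 5 called genes did not. Losses numbered 4 without APAP_MSC library 2, 3 without APAP library 1 and APAP_MSC library 3, 2 without APAP_MSC library 1, and 1 without APAP libraries 2 and 3 and APAP_HDF library 2, with adjusted p of 0.0545 to 0.146 where lost. Apoa4 and Angptl4 lost their calls without a low-count filter.

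Male-biased liver genes, which in mice depend on the pulsatile secretion of growth hormone, held 4 of 17 members that rose and 0 that fell (median 0.42). The count became 1 to 2 without APAP libraries 1 and 2 and APAP_MSC libraries 1, 2 and 3. The sex of the mice is not given here and was not a term of the fit. Hsd3b5, a male-specific steroid reductase, had 2.24, 2.54 and 5.96 CPM in the APAP libraries and 51.7, 48.6 and 39.5 CPM in the APAP_MSC libraries, and these groups did not overlap (log2 fold change 3.68 ± 0.71, adjusted p = 0.0249). Nudt7, a peroxisomal coenzyme A hydrolase, had 28.6, 36.5 and 46.2 CPM in the APAP libraries and 246, 158 and 133 CPM in the APAP_MSC libraries (log2 fold change 2.27 ± 0.24, adjusted p = 0.003401), with every APAP_MSC library several times above APAP. Slco1a1, an organic anion importer, also rose (log2 fold change 2.05 ± 0.44, adjusted p = 0.03396), but did not pass against APAP_HDF (log2 difference 1.47 ± 0.43, adjusted p = 0.0712). Against APAP_HDF 2 of the 17 members were higher in APAP_MSC and 0 lower. The 250 bases before the Hsd3b5 start held none of the 5 motifs searched. The call of Nudt7 held in each of the 9 fits that leave out 1 library, and the other 2 calls did not. Losses came to 2 without APAP libraries 1 and 2 and APAP_MSC libraries 1, 2 and 3, and 1 without APAP library 3 and APAP_HDF library 2, with adjusted p of 0.05703 to 0.103 where lost. Hsd3b5 and Slco1a1 lost their calls without a low-count filter.

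Female-biased genes, higher in livers of female mice, also included more rises than falls. Of 18 members 5 rose and 2 fell, with a median of 1.03, and the count became 3 to 4 without APAP_MSC libraries 1 and 2. Ntrk2, the receptor of brain-derived neurotrophic factor, rose from low levels, 0.0721, 0.205 and 0.0604 CPM in the APAP libraries and 0.812, 1.21 and 3.74 CPM in the APAP_MSC libraries (log2 fold change 4.13 ± 0.67, adjusted p = 0.005603). Its APAP_HDF libraries held 0.0315, 0 and 0.0362 CPM. The low-count filter could keep Ntrk2 only through APAP_MSC, where it is high, so its fold and its calls give the list no separate support. Cyp3a16, a cytochrome P450, also rose (log2 fold change 2.31 ± 0.33, adjusted p = 0.005603), as did Cyp2c69 (log2 fold change 1.73 ± 0.32, adjusted p = 0.0165). Reads of the Cyp3a and Cyp2c families can be shared between copies. Trim24, a transcriptional cofactor, had 30.97, 34.05 and 31.6 CPM in the APAP libraries and 20.4, 12.7 and 18.8 CPM in the APAP_MSC libraries and fell (log2 fold change -0.89 ± 0.15, adjusted p = 0.0118), and the transporter gene Nipal1 fell by 2.01 ± 0.32 (adjusted p = 0.0129) on the log2 scale, reaching 5.83, 4.17 and 3.01 CPM from 12.5, 19.9 and 20.1 CPM. Neither gene overlapped between the groups. Ntrk2, Cyp3a16 and Trim24 passed in each of the 9 fits that leave out 1 library, and 2 of the 5 called genes given here did not. The calls lost numbered 2 without APAP_MSC library 2, and 1 without APAP library 1 and APAP_MSC library 1, with adjusted p of 0.0508 to 0.0785 where lost.

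In the growth hormone and insulin-like growth factor (IGF) axis 2 of 18 members rose, where 2.83% of all tested genes were called higher, and 0 fell. The count became 0 to 1 without APAP_MSC libraries 1, 2 and 3 and APAP_HDF library 2. Ghr, the growth hormone receptor, had 153, 138 and 138 CPM in the APAP libraries and 250.01, 282 and 288 CPM in the APAP_MSC libraries (log2 fold change 0.93 ± 0.18, adjusted p = 0.0182), and its groups were apart. Igfals, the stabiliser of circulating IGF, also rose (log2 fold change 1.25 ± 0.30, adjusted p = 0.0411). Igf1 itself had 343, 431 and 433 CPM in the APAP libraries and 510.4, 391.8 and 448 CPM in the APAP_MSC libraries and did not pass (log2 fold change 0.16 ± 0.13, adjusted p = 0.522). Igfbp1, an injury-induced binding protein, had 159, 57.7 and 149 CPM in the APAP libraries and 45.3, 63.1 and 32.4 CPM in the APAP_MSC libraries and did not pass either (log2 fold change -1.38 ± 0.37, adjusted p = 0.0617). Ghr (log2 difference 1.03 ± 0.18, adjusted p = 0.00825) and Hsd3b5 (log2 difference 3.05 ± 0.68, adjusted p = 0.0318) were higher in APAP_MSC than in APAP_HDF too. When each library was left out in turn, both calls were lost at least once. Lost calls numbered 2 without APAP_MSC libraries 2 and 3, and 1 without APAP libraries 1 and 2, APAP_MSC library 1, and APAP_HDF library 2, with adjusted p of 0.0544 to 0.121 where lost. Igfals lost its call without a low-count filter.

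**Figure D2:**
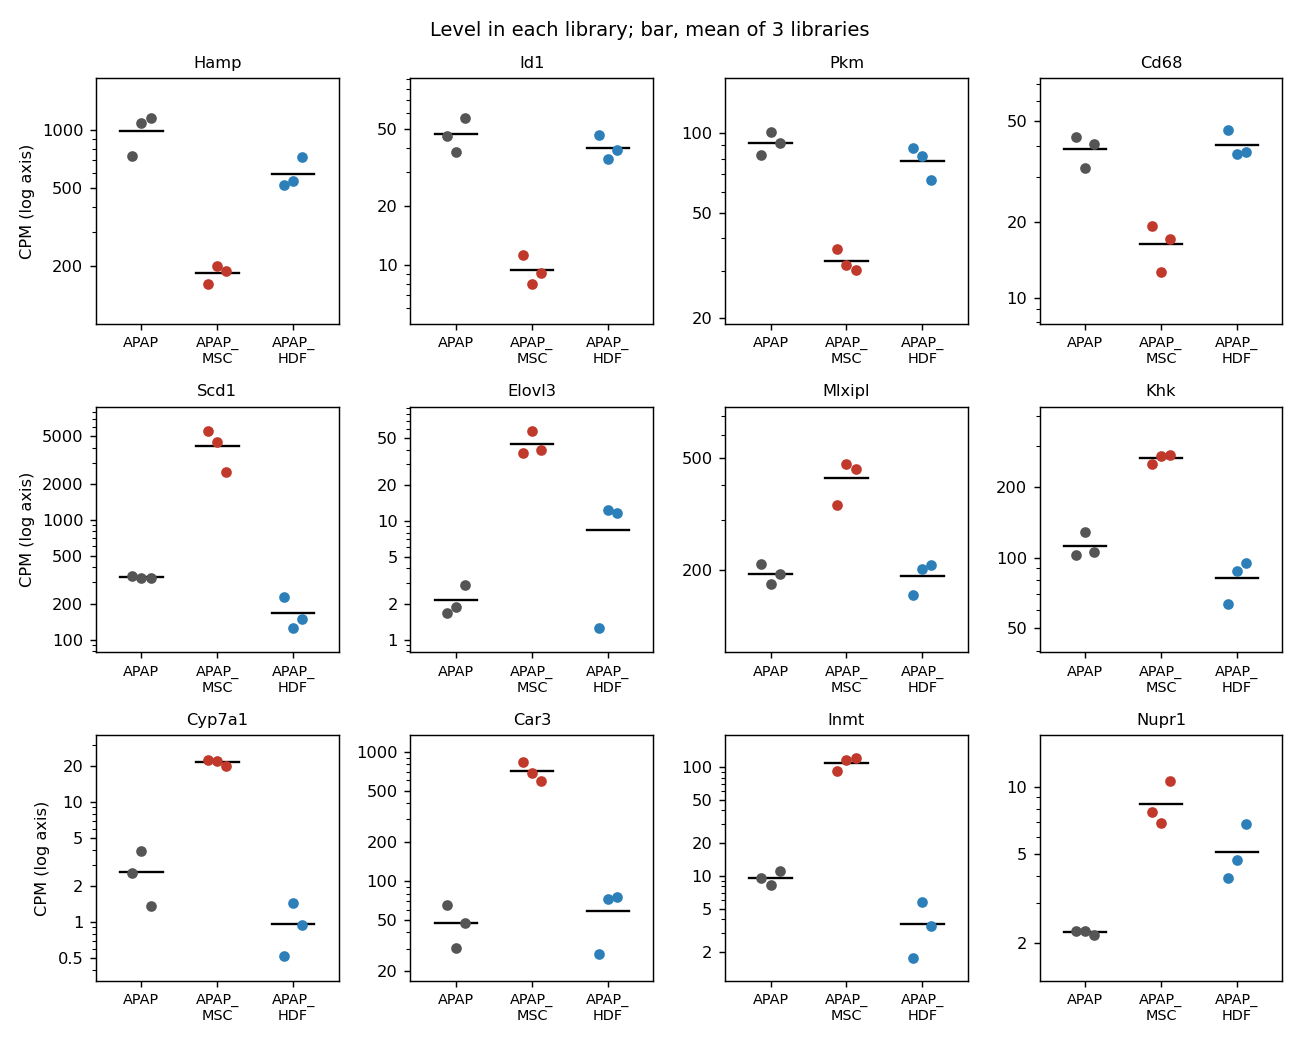
CPM on a log axis in each library for 12 genes given in the text, 1 panel per gene, with 3 points per group (APAP, APAP_MSC, APAP_HDF) and a bar at the group mean. In every panel the 3 APAP_MSC points lie apart from the 3 APAP points, and Hamp, Id1, Pkm and Cd68 are the panels where they lie below.

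Transporters of the hepatocyte membrane were higher in part. Of 20 members 5 rose and 0 fell (median 0.37), and the count became 2 to 3 without APAP libraries 1, 2 and 3, APAP_MSC libraries 1, 2 and 3, and APAP_HDF library 2 and 8 without APAP_HDF library 1. Slc22a7, an organic anion transporter, had 3.08, 3.98 and 2.01 CPM in the APAP libraries and 23.8, 9.05 and 10.7 CPM in the APAP_MSC libraries (log2 fold change 2.28 ± 0.39, adjusted p = 0.0161), and Abcb11, the bile salt export pump, had 189, 304 and 174 CPM in the APAP libraries and 356, 455 and 434 CPM in the APAP_MSC libraries (log2 fold change 0.90 ± 0.23, adjusted p = 0.0481). Neither overlapped between groups. Cyp7a1, which starts bile acid synthesis, had 2.58, 3.88 and 1.36 CPM in the APAP libraries and 22.5, 21.8 and 19.8 CPM in the APAP_MSC libraries, far above every APAP library (log2 fold change 3.05 ± 0.34, adjusted p = 0.003401), and 0.519, 1.45 and 0.942 CPM in APAP_HDF, below APAP_MSC (log2 difference 4.46 ± 0.38, adjusted p = 5.63e-04). With 1 library left out, in 9 fits, Cyp7a1 kept its call throughout and 2 of the 3 called genes did not. Losses numbered 2 without APAP library 1, and 1 without APAP library 3, APAP_MSC libraries 1, 2 and 3, and APAP_HDF libraries 2 and 3, with adjusted p of 0.05097 to 0.167 where lost. Abcb11 lost its call without a low-count filter.

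Enzymes that handle APAP and glutathione were measured in both routes. Of 21 members 5 rose and 1 fell, and against APAP_HDF 9 were higher and 2 lower. Their count became 3 without APAP_MSC library 2. Papss2, which makes the sulfate donor for conjugation, had 71.9, 65.4 and 48.6 CPM in the APAP libraries and 107, 126 and 98.8 CPM in the APAP_MSC libraries (log2 fold change 0.83 ± 0.16, adjusted p = 0.0168). Ugt2b1, a glucuronosyltransferase, had 50.2, 37.7 and 40.6 CPM in the APAP libraries and 103, 92.5 and 103 CPM in the APAP_MSC libraries (log2 fold change 1.22 ± 0.18, adjusted p = 0.00587). On the oxidation side Cyp3a11 had 446, 813 and 502 CPM in the APAP libraries and 1804, 1722 and 1999.7 CPM in the APAP_MSC libraries (log2 fold change 1.65 ± 0.24, adjusted p = 0.00694), and Cyb5a, cytochrome b5, rose by 0.60 ± 0.12 (adjusted p = 0.0184) on the log2 scale. Gpx1, a glutathione peroxidase, had 219, 260.2 and 243 CPM in the APAP libraries and 564, 459.8 and 481 CPM in the APAP_MSC libraries (log2 fold change 1.06 ± 0.14, adjusted p = 0.004999), with the groups apart. Gsr, glutathione reductase, was the member that fell, with 185, 199 and 187 CPM in the APAP libraries and 147, 138 and 153 CPM in the APAP_MSC libraries (log2 fold change -0.38 ± 0.10, adjusted p = 0.0467), and is given after its values were seen. Reads of the Cyp3a and Ugt2b families can be shared between copies. Cyp2e1, the main APAP oxidase, had 514, 699 and 637 CPM in the APAP libraries and 647, 1146 and 1158 CPM in the APAP_MSC libraries, and did not pass (log2 fold change 0.67 ± 0.31, adjusted p = 0.231). The calls of Ugt2b1, Cyp3a11 and Gpx1 held in each of the 9 fits that leave out 1 library, and the other 3 calls did not. Losses came to 3 without APAP_MSC library 2, 2 without APAP_MSC libraries 1 and 3, and 1 without APAP libraries 1, 2 and 3 and APAP_HDF libraries 2 and 3, with adjusted p of 0.0532 to 0.209 where lost. Gsr lost its call with upper quartile factors and without a low-count filter.

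Methionine cycle and one-carbon enzymes rose in 5 of 16 members, with 0 lower (median 0.46). The count became 1 to 2 without APAP libraries 1 and 3, APAP_MSC libraries 1, 2 and 3, and APAP_HDF library 2. Inmt, a methyltransferase of indoleamines, had 9.52, 8.21 and 11.2 CPM in the APAP libraries and 91.4, 116 and 122 CPM in the APAP_MSC libraries (log2 fold change 3.51 ± 0.34, adjusted p = 0.003401). Pemt, which methylates phosphatidylethanolamine, had 99.3, 170.4 and 157 CPM in the APAP libraries and 281, 296 and 266 CPM in the APAP_MSC libraries (log2 fold change 0.98 ± 0.24, adjusted p = 0.0413). Shmt1 (log2 fold change 0.49 ± 0.12, adjusted p = 0.0333), Aldh1l1 (log2 fold change 0.58 ± 0.15, adjusted p = 0.0406) and Sardh (log2 fold change 0.69 ± 0.18, adjusted p = 0.04598), enzymes of folate and sarcosine turnover, rose by less than 2-fold. APAP_MSC and APAP did not overlap for Inmt or Pemt. Inmt alone of the 5 called genes given here passed in each of the 9 fits that leave out 1 library. The calls lost numbered 4 without APAP library 3 and APAP_MSC libraries 1, 2 and 3, 3 without APAP library 1 and APAP_HDF library 2, and 1 without APAP library 2, with adjusted p of 0.0573 to 0.162 where lost. Pemt lost its call without a low-count filter. Sardh lost its call without a low-count filter and with limma-voom.

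Isozymes of glucose and fructose metabolism moved in both directions. Khk, the fructose kinase, had 103, 128 and 105 CPM in the APAP libraries and 249, 272 and 274 CPM in the APAP_MSC libraries (log2 fold change 1.24 ± 0.15, adjusted p = 0.003401). Pygl, liver glycogen phosphorylase, had 179.8, 192 and 137 CPM in the APAP libraries and 369, 383 and 382 CPM in the APAP_MSC libraries (log2 fold change 1.15 ± 0.15, adjusted p = 0.00415). Both separated the groups. Pkm, the pyruvate kinase of most other tissues, had 82.3, 101 and 91.6 CPM in the APAP libraries and 36.5, 31.7 and 30.4 CPM in the APAP_MSC libraries and fell (log2 fold change -1.48 ± 0.13, adjusted p = 7.44e-04), and the glucose transporter Slc2a1 fell too (log2 fold change -0.54 ± 0.11, adjusted p = 0.0216). The list held 4 of 24 members higher and 2 lower, a count that became 3 without APAP_MSC library 2. When each library was left out in turn, the calls of Khk, Pygl and Pkm held throughout and the other was lost at least once. Lost calls numbered 1 without APAP libraries 1 and 2 and APAP_MSC libraries 1, 2 and 3, with adjusted p of 0.0578 to 0.113 where lost.

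Secreted plasma proteins were covered by a list of carriers and a list of complement and coagulation genes. Of 16 carriers 1 rose, Serpina6, the corticosteroid-binding globulin, with 2.07, 1.51 and 2.29 CPM in the APAP libraries and 20.1, 25.2 and 23.6 CPM in the APAP_MSC libraries (log2 fold change 3.54 ± 0.42, adjusted p = 0.004503). The count became 2 to 6 without APAP library 3 and APAP_HDF library 1, and in 10 of the 16 all APAP_MSC libraries lay above all APAP libraries. Ttr, transthyretin, had 3149, 2873 and 2975 CPM in the APAP libraries and 4692, 4612 and 4165 CPM in the APAP_MSC libraries and did not pass (log2 fold change 0.58 ± 0.18, adjusted p = 0.0723), although its groups did not overlap. Of 33 complement and coagulation genes 6 rose, where 2.83% of all tested genes were called higher, and 0 fell (median 0.37), and the count became 0 to 3 without APAP libraries 1 and 2 and APAP_MSC libraries 1, 2 and 3 and 14 without APAP_HDF library 1. C8b, of the membrane attack complex, had 181, 199 and 187 CPM in the APAP libraries and 328, 311 and 302 CPM in the APAP_MSC libraries (log2 fold change 0.73 ± 0.13, adjusted p = 0.0135), C9 rose by 1.02 ± 0.21 (adjusted p = 0.0197) on the log2 scale and F10, coagulation factor X, by 0.79 ± 0.17 (adjusted p = 0.0245). In 22 of the 33 all APAP_MSC libraries lay above all APAP libraries, where 13.7% of tested genes did so. Among hepatocyte transcription factors Cebpa rose (log2 fold change 0.59 ± 0.15, adjusted p = 0.0438) and Prox1 fell (log2 fold change -0.54 ± 0.12, adjusted p = 0.0276), of 22 tested, where 6.38% of all tested genes were called. This count became 0 without APAP libraries 1 and 2 and APAP_MSC libraries 1, 2 and 3 and 4 without APAP library 3. With 1 library left out, in 9 fits, Serpina6 kept its call throughout and 5 of the 6 called genes did not. Losses numbered 5 without APAP_MSC library 2, 4 without APAP library 1 and APAP_MSC library 1, and 3 without APAP library 2 and APAP_MSC library 3, with adjusted p of 0.0508 to 0.1598 where lost. Cebpa lost its call with limma-voom.

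The largest rises and falls by rank included genes of other roles. Car3, a carbonic anhydrase abundant in liver of male mice, had 64.7, 30.4 and 47.03 CPM in the APAP libraries and 836, 684 and 594 CPM in the APAP_MSC libraries (log2 fold change 3.90 ± 0.43, adjusted p = 0.00465). Its APAP_HDF libraries held 27.2, 72.4 and 75.5 CPM, below all APAP_MSC libraries (log2 difference 3.59 ± 0.43, adjusted p = 0.003003). Rgn, the calcium-binding regucalcin, had 29.1, 38.5 and 63.5 CPM in the APAP libraries and 309, 461 and 389 CPM in the APAP_MSC libraries (log2 fold change 3.14 ± 0.64, adjusted p = 0.0292), and Sult2a8, a liver sulfotransferase, rose by 2.36 ± 0.43 (adjusted p = 0.0215) on the log2 scale. On the other side Runx1, a transcription factor of blood cells, had 7.29, 6.65 and 11.2 CPM in the APAP libraries and 2.77, 1.19 and 1.81 CPM in the APAP_MSC libraries (log2 fold change -2.13 ± 0.33, adjusted p = 0.00915). Slpi, an inhibitor of neutrophil elastase that is also in the list of matrix proteins and proteases, had 13.4, 5.13 and 17.1 CPM in the APAP libraries and 2.21, 1.79 and 1.02 CPM in the APAP_MSC libraries (log2 fold change -2.83 ± 0.52, adjusted p = 0.0189), and Ahnak, a giant scaffold protein, had 135, 98.9 and 177 CPM in the APAP libraries and 26.3, 31.3 and 37.4 CPM in the APAP_MSC libraries (log2 fold change -2.11 ± 0.34, adjusted p = 0.0147). The rule that picked them by rank used this same comparison, so their sizes describe the extremes. Runx1 and Slpi are also expressed in myeloid cells, whose summed markers were lower in the same libraries. Their part in these values was not tested. The calls of Car3 and Runx1 held in each of the 9 fits that leave out 1 library, and the other 4 calls did not. Losses came to 4 without APAP_MSC libraries 1 and 2, 3 without APAP library 1 and APAP_MSC library 3, 2 without APAP library 2, and 1 without APAP library 3 and APAP_HDF library 2, with adjusted p of 0.0503 to 0.102 where lost. Rgn, Sult2a8 and Slpi lost their calls without a low-count filter.

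Cytoskeletal, annexin and S100 genes fell in 9 of 29 members, and 0 rose (median -0.58). The count became 0 to 4 without APAP libraries 1 and 3 and APAP_MSC libraries 1, 2 and 3 and 14 without APAP_HDF library 3. Tubb6, a β-tubulin, had 59.8, 80.99 and 83.8 CPM in the APAP libraries and 39.5, 36.8 and 32.2 CPM in the APAP_MSC libraries (log2 fold change -1.05 ± 0.17, adjusted p = 0.0105). Anxa2, a membrane-binding annexin, had 240.4, 144 and 215 CPM in the APAP libraries and 44.1, 49.95 and 37.95 CPM in the APAP_MSC libraries (log2 fold change -2.18 ± 0.43, adjusted p = 0.0271), and Krt8, the main keratin of hepatocytes, had 1983, 1759 and 1662 CPM in the APAP libraries and 766, 922 and 869 CPM in the APAP_MSC libraries (log2 fold change -1.08 ± 0.26, adjusted p = 0.037005). Each of these 3 lay lower in every APAP_MSC library than in any APAP library. S100a11 (log2 fold change -0.99 ± 0.19, adjusted p = 0.0175) and Tpm1, a tropomyosin (log2 fold change -0.76 ± 0.14, adjusted p = 0.0165), also fell. Against APAP_HDF 3 of the 29 were lower and 0 higher. Of 22 targets of YAP and TEAD, the effectors of the Hippo pathway, 3 fell and 0 rose (median -0.46), and the count became 0 to 1 without APAP libraries 1 and 2, APAP_MSC libraries 1, 2 and 3, and APAP_HDF library 2 and 5 without APAP_HDF library 1. These were Axl (log2 fold change -0.98 ± 0.24, adjusted p = 0.0391), Crim1 (log2 fold change -0.58 ± 0.15, adjusted p = 0.0404) and Dock5 (log2 fold change -0.42 ± 0.10, adjusted p = 0.03196). Ctgf (Ccn2), a matricellular protein, had 40.2, 22.3 and 23.3 CPM in the APAP libraries and 11.3, 5.74 and 12.4 CPM in the APAP_MSC libraries and did not pass (log2 fold change -1.54 ± 0.40, adjusted p = 0.0548). Members of both lists are also expressed in macrophages, endothelium and stellate cells. Macrophage and monocyte markers, of which 7 of 12 fell, summed to 134, 130.2 and 184 CPM in APAP and 86.2, 62.2 and 69.02 CPM in APAP_MSC. Endothelial and stellate marker sums, given with those markers, were lower in the same libraries too. The part of these cells in the values was not tested. Each of the 8 calls was lost in at least 1 of the 9 fits that leave out 1 library. The calls lost numbered 8 without APAP_MSC library 2, 7 without APAP_MSC libraries 1 and 3, 6 without APAP library 1, and 4 without APAP libraries 2 and 3 and APAP_HDF library 2, with adjusted p of 0.05299 to 0.185 where lost. Anxa2, Krt8, Axl and Dock5 lost their calls without a low-count filter. Crim1 lost its call with limma-voom.

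Immediate early and injury-induced transcription factors held 4 lower and 0 higher members of 23 (median -0.48), a count that became 1 to 2 without APAP library 2 and APAP_MSC libraries 1, 2 and 3, while the median became -0.75 without APAP_MSC library 1. Klf6, a zinc finger factor, had 42.9, 39.2 and 53.7 CPM in the APAP libraries and 19.6, 15.9 and 13.9 CPM in the APAP_MSC libraries (log2 fold change -1.46 ± 0.18, adjusted p = 0.003401), and Klf4 (log2 fold change -1.83 ± 0.35, adjusted p = 0.0173) and Klf2 (log2 fold change -0.90 ± 0.23, adjusted p = 0.0407), which are strong in endothelium, also fell. So did Fosl1, an AP-1 subunit (log2 fold change -1.69 ± 0.38, adjusted p = 0.02701). Groups of Klf6 were apart. Genes of the integrated stress and unfolded protein response had 3 of 24 higher and 0 lower. Their median was 0.27 and the count became 1 without APAP_MSC libraries 1 and 2 and 5 without APAP library 3. This median became 0.45 and 0.41 without APAP library 2 and APAP_MSC library 3. Against APAP_HDF 0 were higher and 2 lower. Nupr1, a stress-induced chromatin protein, had 2.25, 2.26 and 2.16 CPM in the APAP libraries and 7.71, 6.91 and 10.7 CPM in the APAP_MSC libraries (log2 fold change 1.93 ± 0.24, adjusted p = 0.00341), Ddit3, the factor CHOP, rose by 1.28 ± 0.23 (adjusted p = 0.0165) on the log2 scale and Atf5 by 0.66 ± 0.13 (adjusted p = 0.0184). Among p53 targets Cdkn1a, a cell cycle inhibitor, fell (log2 fold change -0.83 ± 0.16, adjusted p = 0.0173), whereas Bbc3 (log2 fold change 0.88 ± 0.18, adjusted p = 0.0198) and Fas (log2 fold change 0.60 ± 0.15, adjusted p = 0.0443), both of cell death, rose, of 16 tested, and the count became 0 without APAP_MSC libraries 1 and 2. When each library was left out in turn, the calls of Klf6 and Nupr1 held throughout and the other 8 were lost at least once. Lost calls numbered 8 without APAP_MSC libraries 1 and 2, 4 without APAP_MSC library 3, 3 without APAP libraries 2 and 3, and 2 without APAP library 1 and APAP_HDF library 2, with adjusted p of 0.05096 to 0.164 where lost. Klf2 and Fosl1 lost their calls with limma-voom.

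No gene of DNA replication and mitosis passed, 0 of 23 tested, with a median of 0.01 that lay between -0.42 and 0.27 with 1 library left out. The count became 1 without APAP libraries 2 and 3 and APAP_HDF library 3. Of 20 ribosome biogenesis genes 1 fell, Ncl, the nucleolar protein nucleolin (log2 fold change -0.39 ± 0.11, adjusted p = 0.0493), and the count became 0 without APAP libraries 1, 2 and 3, APAP_MSC libraries 1, 2 and 3, and APAP_HDF libraries 2 and 3 and 2 without APAP_HDF library 1. Growth factors and receptors of liver regeneration held 6 lower and 1 higher of 21, a count that became 1 to 4 without APAP libraries 1 and 2 and APAP_MSC libraries 1, 2 and 3. Angpt2, the angiopoietin released by activated endothelium, had 6.55, 3.55 and 5.34 CPM in the APAP libraries and 1.37, 0.812 and 1.22 CPM in the APAP_MSC libraries (log2 fold change -2.18 ± 0.36, adjusted p = 0.01197), and Tek, its receptor, had 11.2, 12.7 and 7.79 CPM in the APAP libraries and 5.79, 4.76 and 5.92 CPM in the APAP_MSC libraries (log2 fold change -0.94 ± 0.20, adjusted p = 0.0214). The groups of both were apart. Tgfa, an epidermal growth factor receptor ligand, also fell (log2 fold change -0.55 ± 0.12, adjusted p = 0.02401), as did Hgf, the mitogen made by stellate and endothelial cells (log2 fold change -1.15 ± 0.30, adjusted p = 0.0446), which was chosen after its values were seen. Notum, a hydrolase that inactivates Wnt ligands, rose (log2 fold change 1.49 ± 0.30, adjusted p = 0.0198). Of 19 clock genes 1 rose, Npas2 (log2 fold change 1.60 ± 0.41, adjusted p = 0.0469), a count that became 0 without APAP library 1, APAP_MSC libraries 1, 2 and 3, and APAP_HDF library 3 and 2 without APAP library 3 and APAP_HDF library 1, and the time of day of collection is not given in the labels. With 1 library left out, in 9 fits, every one of the 7 calls was lost in at least 1 fit. Losses numbered 7 without APAP_MSC library 2, 6 without APAP_MSC libraries 1 and 3, 5 without APAP libraries 1 and 2, 3 without APAP library 3, and 2 without APAP_HDF libraries 2 and 3, with adjusted p of 0.0504 to 0.206 where lost. Ncl lost its call with RLE factors, with upper quartile factors and with edgeR's older quasi-likelihood method. Hgf lost its call with upper quartile factors, without a low-count filter and with limma-voom. Npas2 lost its call without a low-count filter and with limma-voom.

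Cell type markers differed beside these genes. Summed over 12 sinusoidal endothelial markers the level was 368, 406 and 275 CPM in APAP and 226, 199 and 230.2 CPM in APAP_MSC, without overlap. APAP_HDF stood at 375, 345 and 261 CPM. Of these markers 4 fell and 0 rose, and the count became 0 to 2 without APAP libraries 1 and 2 and APAP_MSC libraries 1, 2 and 3 and 7 to 8 without APAP library 3 and APAP_HDF library 3. Lyve1, a hyaluronan receptor, had 21.9, 16.2 and 11.2 CPM in the APAP libraries and 4.54, 3.399 and 3.96 CPM in the APAP_MSC libraries (log2 fold change -2.05 ± 0.39, adjusted p = 0.0205), Stab1, a scavenger receptor, had 76.4, 68.9 and 47.7 CPM in the APAP libraries and 39.8, 31.2 and 37.2 CPM in the APAP_MSC libraries (log2 fold change -0.83 ± 0.18, adjusted p = 0.02595), and Oit3 fell by 0.85 ± 0.15 (adjusted p = 0.0142) on the log2 scale. In the list of clot, fibrinolysis and vessel activation 4 of 20 members fell and 1 rose, and the count became 2 to 3 without APAP libraries 1 and 2 and APAP_MSC libraries 1, 2 and 3 and 8 to 9 without APAP_HDF libraries 1 and 3. Procr, the endothelial protein C receptor, had 7.304, 6.53 and 9.37 CPM in the APAP libraries and 2.07, 1.57 and 2.22 CPM in the APAP_MSC libraries (log2 fold change -1.99 ± 0.21, adjusted p = 0.00303), and Thbd, thrombomodulin, had 13.3, 17.99 and 7.41 CPM in the APAP libraries and 2.81, 2.76 and 2.94 CPM in the APAP_MSC libraries (log2 fold change -2.18 ± 0.46, adjusted p = 0.0291). Itgb3, an integrin subunit of platelets and endothelium, fell by 1.32 ± 0.20 (adjusted p = 0.00673) on the log2 scale, and Nos3, the nitric oxide synthase of endothelium, dropped by 1.32 ± 0.30 (adjusted p = 0.0283). Angpt2, Tek, Klf2, Klf4 and Bmp2 are also expressed in endothelium, and the summed endothelial level was lower in the same libraries. Its part in their change was not tested. The calls of Procr and Itgb3 held in each of the 9 fits that leave out 1 library, and the other 5 calls did not. Losses came to 5 without APAP_MSC libraries 2 and 3, 4 without APAP library 1 and APAP_MSC library 1, and 3 without APAP library 2, with adjusted p of 0.0505 to 0.137 where lost. Lyve1 and Thbd lost their calls without a low-count filter. Nos3 lost its call with limma-voom.

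Myeloid markers were lower as well. For 12 monocyte and macrophage markers the summed level was 134, 130.2 and 184 CPM in APAP, 86.2, 62.2 and 69.02 CPM in APAP_MSC and 132, 121 and 97.3 CPM in APAP_HDF. Of these 7 fell and 0 rose, and the count became 2 to 4 without APAP libraries 1 and 3, APAP_MSC libraries 1, 2 and 3, and APAP_HDF library 2. Cd68, a lysosomal protein of macrophages, had 43.1, 32.7 and 40.6 CPM in the APAP libraries and 19.3, 12.7 and 17.04 CPM in the APAP_MSC libraries (log2 fold change -1.25 ± 0.16, adjusted p = 0.00415), and Chil3, a lectin of activated macrophages, had 9.52, 8.16 and 11.8 CPM in the APAP libraries and 1.97, 1.89 and 1.96 CPM in the APAP_MSC libraries (log2 fold change -2.34 ± 0.21, adjusted p = 7.69e-04). Trem2, a lipid receptor of macrophages that take up debris, had 2.07, 2.39 and 2.19 CPM in the APAP libraries and 0.757, 0.737 and 0.881 CPM in the APAP_MSC libraries (log2 fold change -1.48 ± 0.23, adjusted p = 0.00915). For all 3 every APAP_MSC library lay below every APAP library. Cd68 was 46.1, 37.04 and 37.9 CPM in APAP_HDF (log2 difference -1.30 ± 0.16, adjusted p = 0.00173), and Chil3 was 9.71, 6.84 and 6.39 CPM (log2 difference -1.98 ± 0.21, adjusted p = 0.001004). Only these 2 of the 12 monocyte and macrophage markers were called against APAP_HDF. The median log2 fold change of the 12 in APAP_HDF over APAP was -0.65. Kupffer cell markers, of resident macrophages, summed to 178, 273 and 399 CPM in APAP and 235, 164 and 143 CPM in APAP_MSC, which overlapped, and 0 of 10 passed, which became 1 without APAP_HDF library 3. Cd68 and Chil3 passed in each of the 9 fits that leave out 1 library, and 1 of the 3 called genes given here did not. The calls lost numbered 1 without APAP_MSC library 2, with an adjusted p of 0.06202 where lost.

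Neutrophil markers were near the lower end of detection. Their 7 members summed to 11.7, 10.3 and 13.5 CPM in APAP, 4.37, 3.04 and 2.94 CPM in APAP_MSC and 12.04, 5.56 and 3.495 CPM in APAP_HDF, and 4 fell, a count that became 0 to 2 without APAP libraries 1, 2 and 3 and APAP_MSC libraries 1, 2 and 3. S100a8, an alarmin, had 2.69, 2.15 and 3.501 CPM in the APAP libraries and 0.849, 0.491 and 0.37003 CPM in the APAP_MSC libraries (log2 fold change -2.29 ± 0.41, adjusted p = 0.0147), and S100a9, its partner, had 2.38, 2.35 and 2.75 CPM in the APAP libraries and 0.7197, 0.642 and 0.793 CPM in the APAP_MSC libraries (log2 fold change -1.79 ± 0.40, adjusted p = 0.0269). Mmp8, neutrophil collagenase, had 0.325, 0.336 and 0.649 CPM in the APAP libraries and 0.0369, 0.0755 and 0.141 CPM in the APAP_MSC libraries (log2 fold change -2.36 ± 0.54, adjusted p = 0.0274). The groups of all 3 were apart. In Retnlg, the remaining call, 2 of the 3 APAP_MSC libraries held 0 reads, so no fold is given. The low-count filter could keep Mmp8 and Retnlg only with libraries outside APAP_MSC, where they are low. Their falls therefore give the list no separate support. When each library was left out in turn, all 3 calls were lost at least once. Lost calls numbered 3 without APAP_MSC libraries 2 and 3, 2 without APAP library 3 and APAP_MSC library 1, and 1 without APAP libraries 1 and 2, with adjusted p of 0.0508 to 0.129 where lost.

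A few chemokine and cytokine genes were lower. Of 23 chemokines and receptors 4 fell and 0 rose (median -0.91), and the count became 0 to 2 without APAP libraries 1, 2 and 3 and APAP_MSC libraries 1, 2 and 3, with a median that became -1.37 without APAP_MSC library 1. Against APAP_HDF 0 of these 23 were called, and their median in APAP_HDF over APAP was -0.52. Ccl6, a chemokine of myeloid cells, had 7.59, 13.1 and 15.8 CPM in the APAP libraries and 4.37, 4.38 and 3.12 CPM in the APAP_MSC libraries (log2 fold change -1.62 ± 0.32, adjusted p = 0.02003), and the receptors Ccr1 (log2 fold change -1.62 ± 0.40, adjusted p = 0.0366), Cx3cr1 (log2 fold change -1.15 ± 0.31, adjusted p = 0.0474) and Cxcr4 (log2 fold change -1.36 ± 0.34, adjusted p = 0.0387) fell. Of 19 cytokine and sensing genes 2 fell, Cd14, the endotoxin co-receptor (log2 fold change -1.74 ± 0.34, adjusted p = 0.0216), and Casp1, of the inflammasome (log2 fold change -1.12 ± 0.28, adjusted p = 0.0416), a count that became 0 to 1 without APAP libraries 1 and 3 and APAP_MSC libraries 1, 2 and 3 and 4 to 5 without APAP_HDF libraries 1 and 3. Against APAP_HDF 1 of the 19 was lower in APAP_MSC and 0 were higher. The monocyte attractant Ccl2 had 5.41, 5.56 and 12.2 CPM in the APAP libraries and 5.13, 2.06 and 2.22 CPM in the APAP_MSC libraries and did not pass (log2 fold change -1.31 ± 0.44, adjusted p = 0.114). Interferon-induced genes held 1 called member of 25, Bst2, which tethers virus particles and rose (log2 fold change 0.63 ± 0.14, adjusted p = 0.0301), and this count became 0 without APAP libraries 1 and 2 and APAP_MSC libraries 1, 2 and 3. Antigen presentation had 0 of 17 called, which became 1 without APAP library 3, and lysosomal genes 1 of 28, Ctsc, a cathepsin that fell (log2 fold change -0.43 ± 0.11, adjusted p = 0.0463), which became 0 without APAP libraries 1 and 3, APAP_MSC libraries 1, 2 and 3, and APAP_HDF library 2. Many genes in these lists are transcribed in myeloid cells, whose summed markers were lower in the same libraries. Their part in these values was not tested. With 1 library left out, in 9 fits, every one of the 8 calls was lost in at least 1 fit. Losses numbered 8 without APAP_MSC libraries 1, 2 and 3, 7 without APAP library 1, 5 without APAP library 2, 4 without APAP library 3, 3 without APAP_HDF library 2, and 1 without APAP_HDF library 3, with adjusted p of 0.0524 to 0.188 where lost. Cx3cr1 lost its call with upper quartile factors, with at least 1 CPM required in 3 libraries, with limma-voom, without robust moderation and with edgeR's older quasi-likelihood method. Cxcr4 lost its call with limma-voom. Cd14 lost its call without a low-count filter. Casp1 lost its call without a low-count filter and with limma-voom. Ctsc lost its call without a low-count filter, with limma-voom and with only the 6 libraries compared.

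A few stellate cell and matrix genes were lower. Hepatic stellate cell and fibroblast markers summed to 324, 346 and 235 CPM in APAP and 225, 229.9 and 212 CPM in APAP_MSC, and 2 of 12 fell, Dcn, the proteoglycan decorin (log2 fold change -0.67 ± 0.14, adjusted p = 0.02102), and Pdgfra, a growth factor receptor (log2 fold change -0.98 ± 0.23, adjusted p = 0.0309). Their count became 0 without APAP libraries 1 and 2 and APAP_MSC libraries 1, 2 and 3. These markers summed to 248.2, 265.6 and 179.9 CPM in APAP_HDF, and 0 of the 12 were called against APAP_HDF. In the matrix list 5 of 27 fell and 0 rose (median -0.65), and the count became 0 to 3 without APAP libraries 1 and 2, APAP_MSC libraries 1, 2 and 3, and APAP_HDF library 2. The 5 include Slpi and the neutrophil marker Mmp8, both given above. The low-count filter could keep Mmp8 only with libraries outside APAP_MSC. Lamc1, a laminin chain, had 57.9, 48.98 and 44.95 CPM in the APAP libraries and 33.6, 26.7 and 30.7 CPM in the APAP_MSC libraries (log2 fold change -0.74 ± 0.13, adjusted p = 0.0142), and Timp3, a protease inhibitor, had 13.3, 18.01 and 7.499 CPM in the APAP libraries and 5.98, 5.25 and 5.89 CPM in the APAP_MSC libraries (log2 fold change -1.18 ± 0.30, adjusted p = 0.0448). Both separated the groups. Cholangiocyte markers, of bile duct cells, had 0 of 10 called, with sums of 272, 193 and 218 CPM in APAP and 217, 208 and 244 CPM in APAP_MSC. Against APAP_HDF 6 of them were higher in APAP_MSC. Erythroid markers held 1 rise, Alas2, the first enzyme of heme synthesis in red cells (log2 fold change 0.90 ± 0.21, adjusted p = 0.0349), and the count became 0 without APAP library 3, APAP_MSC libraries 1, 2 and 3, and APAP_HDF library 2 and 4 without APAP library 2. All 5 calls given with values in this paragraph were lost in at least 1 of the 9 fits that leave out 1 library. Losses came to 5 without APAP_MSC library 2, 4 without APAP library 2 and APAP_MSC libraries 1 and 3, 3 without APAP library 1, 2 without APAP_HDF library 2, and 1 without APAP library 3, with adjusted p of 0.0535 to 0.175 where lost. Timp3 lost its call with upper quartile factors, without a low-count filter and with limma-voom.

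**Figure D3:**
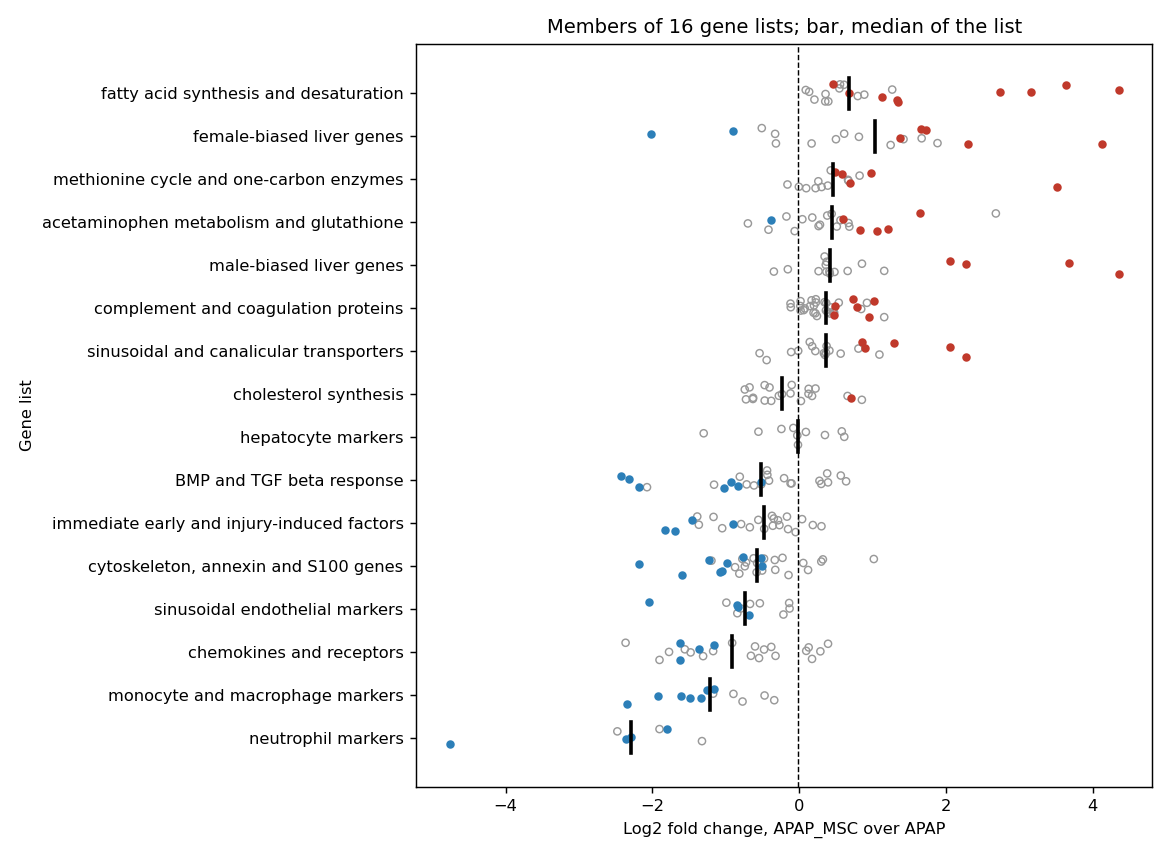
Log2 fold change of APAP_MSC over APAP for every tested member of 16 gene lists (horizontal axis), 1 row per list, with filled red points for members called higher, filled blue points for members called lower, open grey points for the rest and a black bar at the list's median. The dashed line is the median of all tested genes, and the lists of fatty acid synthesis and of neutrophil markers lie at opposite sides of it. The leftmost neutrophil point is Retnlg, which had 0 reads in 2 APAP_MSC libraries, so its place is no bound.

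**Figure D4:**
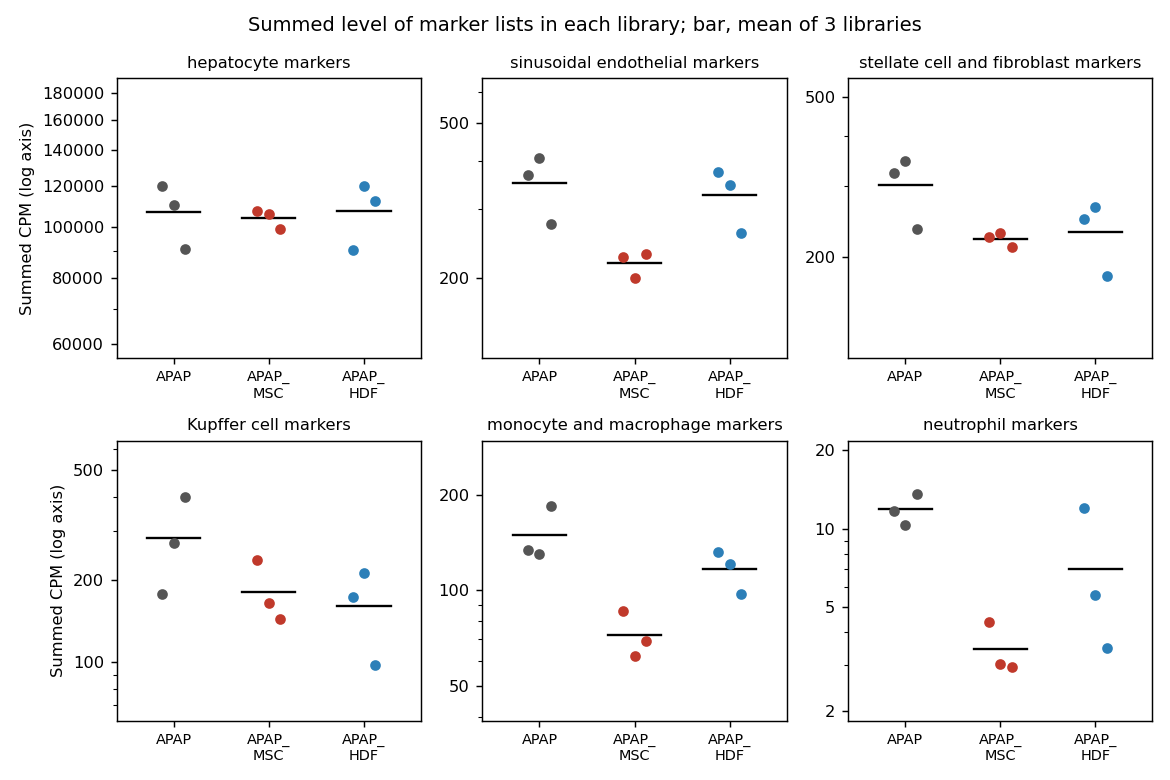
Summed CPM of 6 cell type marker lists in each library (vertical log axis), 1 panel per list, with 3 points per group and a bar at the group mean. APAP_MSC lies below APAP without overlap in the sinusoidal endothelial, monocyte and macrophage, neutrophil and stellate panels, and the groups overlap in the hepatocyte and Kupffer cell panels.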

How the data were processed

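RNA of 9 mouse liver libraries was sequenced, 3 per group. The submitters' processing notes list the tools HISAT2, Subread and DESeq2, and mm39 and GRCm39 as builds, while the use of strand is not given in the sources used here. The authors deposited raw read counts per gene symbol as whole numbers, and these counts were used; their table of normalized counts was not used here. Groups came from sample labels, and columns were matched to groups by name.

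From the raw counts, genes were kept by filterByExpr, which left 17582 symbols. TMM scaling and edgeR 4.0.16 (R 4.3.3) quasi-likelihood fits with robust moderation, on all 9 libraries with group as the only term, gave log2 fold changes. Their SE was the fold change over the square root of F. Calls needed a two-sided p, adjusted after Benjamini and Hochberg, under 0.05. Depth was 53267000 to 63176000 counts. The fit was tested on simulated data with known changes. The 33 gene lists and 13 marker lists, the comparison itself and the named genes were chosen with earlier results of these data known. Of 828 listed symbols 823 were in the table, 3 of them under older symbols, and 794 were tested. Genes named were the 12 largest rises and falls among calls with at least 5 CPM on average and no overlap, up to 5 members per list with the smallest p, all called members where a list had at most 5, and 23 readouts. Not every gene so taken is printed, and genes outside that rule are marked where they stand. Promoters come from RefSeq's table for GRCm38.p6, a build other than that of the files, and no other coordinate is given. Alternatives were RLE and upper quartile factors, 2 other filters (none, or at least 1 CPM in 3 libraries), DESeq2 1.42.0, limma-voom (limma 3.58.1), only the 6 libraries compared, no robust moderation, each library left out, and edgeR's older quasi-likelihood method, which was chosen after seeing the data.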

Additional observations from a re-analysis of the deposited data

How the results depend on the processing

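No paired analysis was possible because the count columns carry no replicate number. With DESeq2 in place of edgeR, 2050 genes were called in APAP_MSC against APAP, 904 higher and 1146 lower, and 1119 of the 1121 edgeR calls were among them. DESeq2 called 2531 genes in APAP_MSC against APAP_HDF, 1337 higher and 1194 lower. Leaving out 1 library gave 97 to 1753 calls against APAP, 57 to 859 higher and 40 to 894 lower, and 361 to 1793 against APAP_HDF, 250 to 1017 higher and 111 to 776 lower. The lowest counts all came without APAP_MSC library 2, and the highest against APAP without APAP_HDF library 1; the cause was not tested. The other 8 alternatives kept every one of these counts within 1.5 times, from 884 with limma-voom to 1413 with only the 6 libraries compared, against APAP. Of the 1121 calls, 865 were shared with limma-voom and 1032 with the fit to 6 libraries. Counts do not show which genes were called: of 115 called genes given with values, 36 lost the call under at least 1 of these alternatives, and each is named in its paragraph. They numbered 27 without a low-count filter, 15 with limma-voom, 6 with upper quartile factors, 3 with edgeR's older quasi-likelihood method, 1 in each of the other 4 and 0 with DESeq2. Counts of called members moved by over 1.5 times in 27 of 46 lists with DESeq2, 16 with only the 6 libraries compared and 10 without a low-count filter. The fold changes of the genes given with values kept their sign under each alternative run. Genes under about 1 CPM, such as Mmp8, rest on few reads per library, and 3 libraries a side limit every test.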
